A study of Mus musculus with 12 samples.

Results

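The 10 genes described here encode the 5 NF-κB subunits (Nfkb1, Nfkb2, Rel, Rela and Relb) and 5 feedback proteins that NF-κB itself induces (Nfkbia, Nfkbie, Nfkbiz, Bcl3 and Tnfaip3). Below, inhibitors is the group name of these 5, although the nuclear proteins of Nfkbiz and Bcl3 are not simple inhibitors. All 10 genes were taken by name from the 46102 genes in the tables of 12 RNA-seq libraries. All 10 were found, each as a single entry, and all 10 passed the filter on low values that left 10072 genes to be tested. Each library was made from 100 sorted BCR-ABL1+ KSL cells (lineage-negative, c-Kit-positive and Sca-1-positive) from the bone marrow and spleen of C57BL/6 mice with a disease like chronic myeloid leukemia (CML). The disease was started by transplanting bone marrow cells of fluorouracil-treated G0M mice, carrying human BCR-ABL1 on an MSCV retrovirus with GFP, into lethally irradiated C57BL/6 recipients that also received normal bone marrow cells. In G0M mice a fluorescent marker of quiescent cells, mVenus fused to a p27 mutant without Cdk inhibitory activity, stands in the Rosa26 locus and is switched on by Vav1-Cre, so it is limited to blood cells. DP cells carried G0M and CD27, and SP cells carried CD27 without G0M, both from vehicle-treated mice. IMDP and IMSP cells were the same populations from mice that received the BCR-ABL1 kinase inhibitor imatinib by oral gavage, 40 mg/kg once a day. Treatment with imatinib or vehicle began 10 days after transplantation, and the mice were 6 to 12 weeks old. Each of the 4 groups had 3 libraries. The labels do not say whether the libraries of a group came from different mice, so the p values measure the spread between these libraries, which may be technical. The comparisons ask how NF-κB components differed between G0M+ and G0M- leukemic cells, and between treated and untreated mice.

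NF-κB is a family of transcription factors that act as dimers. In resting cells the dimers are held in the cytoplasm by IκB proteins, and in the canonical pathway the IKK complex phosphorylates IκBα, which is then degraded and frees the dimer to enter the nucleus. Several of the genes that NF-κB switches on encode its own inhibitors, so transcripts of IκBα and A20 are commonly read as a record of recent activity, while the RNA of a subunit says little about how much of its protein is in the nucleus. In myeloid leukemia the pathway can be driven by cytokines, by Toll-like receptors and by oncogenic kinases.

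The total read number behind the values, estimated from their steps, lay between 11.37 M and 20.57 M per library, so that 1 read per kilobase of transcript was worth 0.0486 to 0.088 RPKM (reads per kilobase of transcript, scaled to the library total). KSL markers were present in every library, with a summed level of 83.4 to 188.5 RPKM over 8 genes that included Kit, Ly6a and Cd27. The summed level of 6 cycling genes was 28.4 to 77.9 RPKM in DP and 21.3 to 40.8 in IMDP libraries, and 214.0 to 235.8 in SP and 214.8 to 280.0 in IMSP libraries. Of 7 T cell markers Trac was at 0 in all 12 libraries while Lck averaged 2.80 to 4.60 RPKM in the groups, and of 5 B cell markers Ms4a1 and Pax5 were at 0 while Cd79b averaged 2.42 to 3.18. The sample descriptions number the libraries from 1 to 12, and all 6 imatinib libraries have lower numbers than all 6 vehicle libraries, so that treatment and this number cannot be told apart. The values of the 10 genes rested on 29 (Relb) to 5718 (Tnfaip3) recovered reads per library. In RNA from bulk sorted cells, fewer cells that express a gene and less RNA per cell cannot be told apart.

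Of these genes 9 had their highest group mean in DP and the next highest in SP cells, and Bcl3 was the exception. On the RPKM scale, which is per length of transcript, Nfkbia was the most abundant of them in both vehicle groups and also in IMSP and IMDP cells. Tnfaip3 and Nfkbiz followed in DP and SP cells, and Nfkb1 was the most abundant subunit in all 4 groups. The lowest mean was that of Bcl3 in DP and SP cells (2.53 and 1.80 RPKM) and that of Relb in IMDP and IMSP cells (1.20 and 0.889 RPKM). In IMDP cells the means of Nfkbia and Nfkb1, 20.8 ± 10.7 and 20.4 ± 0.712 RPKM, were within their spread of each other. The ratio of the highest to the lowest of the 12 libraries was 1.88 for Nfkb1 and 2.20 for Rela, 3.57 for Nfkb2, 5.30 for Rel and 6.81 for Relb. Among the inhibitors it was 6.15 for Nfkbia, 6.19 for Bcl3, 8.43 for Nfkbie, 13.5 for Nfkbiz and 20.4 for Tnfaip3. Levels of the inhibitors thus spanned a wider range over the libraries than those of Nfkb1 and Rela. DP replicate 2 was the highest of all 12 libraries for 9 of the genes, and IMSP replicate 3 for Bcl3.

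**Figure D1:**
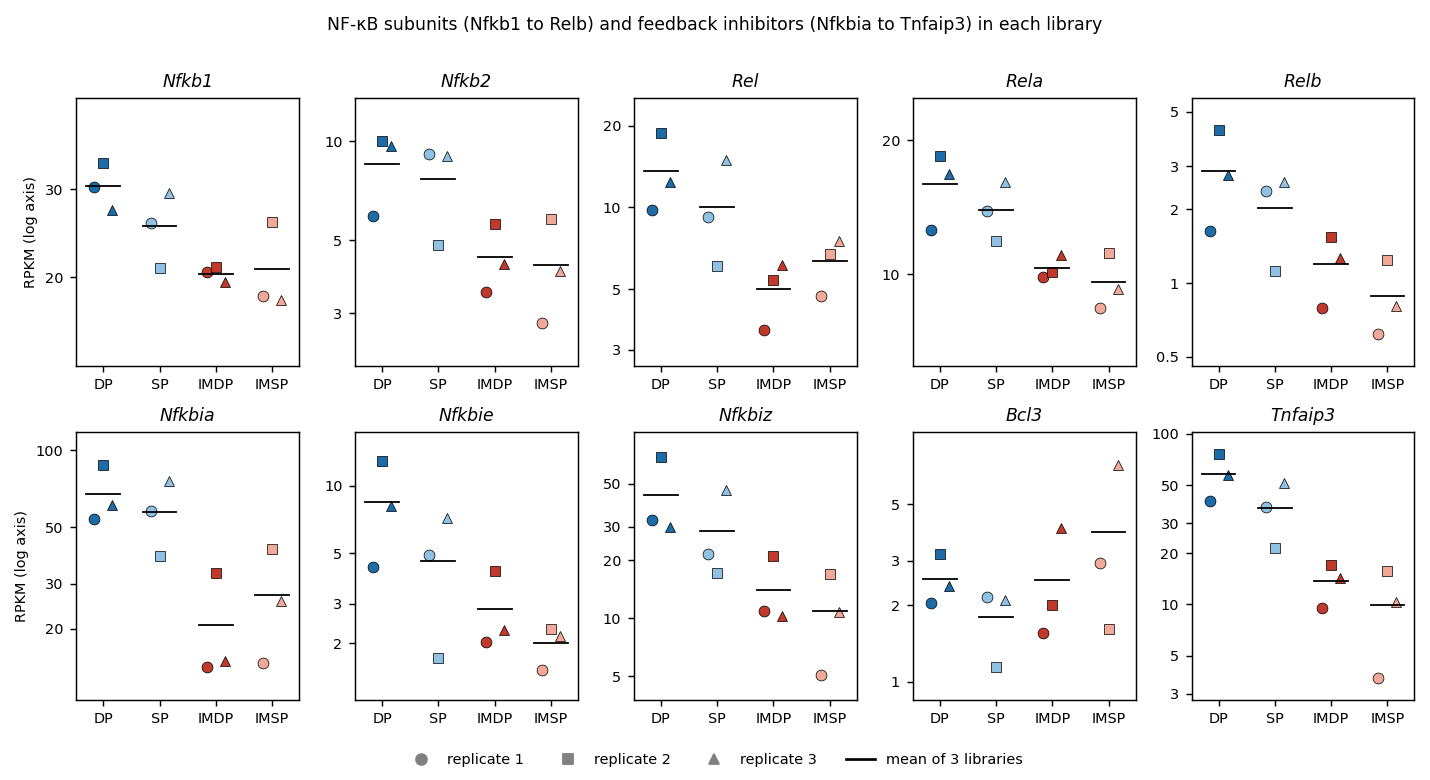
RPKM of each gene (vertical axis, log scale, a different range in each panel) in the 12 libraries, by group, with the replicate number given by the marker and the mean of 3 libraries by a bar. In 9 panels the DP libraries lie above all IMDP libraries, and only Bcl3 overlaps; Tnfaip3 spans the widest range, from 3.73 to 76.0 RPKM.

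Tnfaip3, on chromosome 10 (19000910 to 19015657, minus strand, GRCm38), encodes A20, an enzyme that edits ubiquitin chains and shuts off signals to IKK. Its level was 40.5, 76.0 and 57.7 RPKM in DP replicates 1, 2 and 3, and the values below keep that order. It was 37.0, 21.4 and 51.4 RPKM in SP, 9.54, 17.1 and 14.3 in IMDP, and 3.73, 15.7 and 10.4 in IMSP libraries. Every imatinib library was lower than every vehicle library. For Tnfaip3 the group means were 58.0 ± 17.8 RPKM (SD, n = 3) for DP, 36.6 ± 15.0 for SP, 13.7 ± 3.82 for IMDP and 9.93 ± 6.00 for IMSP cells. With imatinib, averaged over both populations, Tnfaip3 fell by 2.04 ± 0.334 (SE) on the log2(RPKM + 0.1) scale, on which all fold changes here are given (adjusted p = 0.0210, limma with Benjamini-Hochberg adjustment over 10072 genes).

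Nfkbia, on chromosome 12 (55489410 to 55492647, minus strand), encodes IκBα, the inhibitor that is degraded and made anew in each round of the canonical pathway. Its level was 53.9, 87.5 and 60.9 RPKM in DP, 58.1, 38.7 and 75.7 in SP, 14.2, 33.2 and 14.9 in IMDP, and 14.7, 41.0 and 25.8 in IMSP libraries. One vehicle library, SP replicate 2, lay below the highest imatinib library, IMSP replicate 2, and the other vehicle libraries lay above all imatinib libraries. For Nfkbia the group means were 67.4 ± 17.7 RPKM for DP, 57.5 ± 18.5 for SP, 20.8 ± 10.7 for IMDP and 27.2 ± 13.2 for IMSP cells. With imatinib Nfkbia fell by 1.46 ± 0.286 on average (adjusted p = 0.0430, limma).

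Of the 10 genes, these 2 alone were past an adjusted p of 0.05 in this averaged contrast, where 0.854% of all genes tested passed, 0.606% as lower with imatinib. The fit took all 12 libraries as separate. Libraries with neighbouring numbers, which share a treatment, deviated together from their group means, with correlations of 0.429 to 0.655. The standard errors and p values of this averaged contrast may therefore be too small. Over all genes 25 were higher and 61 lower with imatinib. The split was 65 higher and 97 lower with the medians of all libraries made equal, and 82 and 74 with the reads on listed genes as denominator. Leaving out a single library changed both calls. Tnfaip3 did not pass without DP replicate 2 (adjusted p = 0.0758, limma), SP replicate 1 (0.0553), SP replicate 3 (0.0662) or IMDP replicate 3 (0.0718). Nfkbia did not pass without DP replicate 1 (0.0658, limma), DP replicate 2 (0.113), DP replicate 3 (0.0550), SP replicate 1 (0.0790), SP replicate 3 (0.109), IMDP replicate 1 (0.0724), IMDP replicate 3 (0.114), IMSP replicate 1 (0.0841) or IMSP replicate 3 (0.0865). Conversely, 6 of the genes passed without SP replicate 2 and 5 passed without IMSP replicate 2, all of them lower with imatinib, where 0.884% and 1.15% of all genes were called as lower. In all these fits the log2 change lay between -2.26 and -1.75 for Tnfaip3 and between -1.66 and -1.27 for Nfkbia.

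Nfkbie and Nfkbiz, which encode proteins of the IκB family, showed lower values with imatinib that did not pass the threshold. Nfkbie, on chromosome 17 (45555703 to 45563169, plus strand), encodes IκBε, which like IκBα holds dimers in the cytoplasm. Its level was 4.35, 12.8 and 8.12 RPKM in DP, 4.92, 1.72 and 7.19 in SP, 2.03, 4.16 and 2.30 in IMDP, and 1.52, 2.31 and 2.16 in IMSP libraries. SP replicate 2 was as low as the imatinib libraries. For Nfkbie the group means were 8.42 ± 4.23 RPKM for DP, 4.61 ± 2.75 for SP, 2.83 ± 1.16 for IMDP and 2.00 ± 0.421 for IMSP cells. The averaged log2 change was -1.23 ± 0.349 (adjusted p = 0.107, limma). Nfkbiz, on chromosome 16 (55811375 to 55838899, minus strand), encodes IκBζ, a nuclear protein of the family that takes part in the transcription of secondary response genes. Its level was 32.6, 69.0 and 29.9 RPKM in DP, 21.5, 17.2 and 46.3 in SP, 11.0, 21.0 and 10.3 in IMDP, and 5.09, 16.9 and 10.8 in IMSP libraries. Among these the imatinib libraries overlapped with the vehicle libraries through IMDP replicate 2 and SP replicate 2. For Nfkbiz the group means were 43.8 ± 21.8 RPKM for DP, 28.3 ± 15.7 for SP, 14.1 ± 6.00 for IMDP and 10.9 ± 5.92 for IMSP cells. The averaged log2 change was -1.49 ± 0.347 (adjusted p = 0.0618, limma).

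Bcl3, on chromosome 7 (19808462 to 19822770, minus strand), encodes another nuclear member of the IκB family, which binds p50 and p52 dimers, and it did not share the pattern of the other feedback genes. Its level was 2.04, 3.18 and 2.38 RPKM in DP, 2.16, 1.15 and 2.09 in SP, 1.55, 2.00 and 4.03 in IMDP, and 2.93, 1.62 and 7.11 in IMSP libraries. The highest values were those of replicate 3 in both imatinib groups. For Bcl3 the group means were 2.53 ± 0.587 RPKM for DP, 1.80 ± 0.564 for SP, 2.53 ± 1.32 for IMDP and 3.88 ± 2.87 for IMSP cells. The groups overlapped, and the averaged log2 change was 0.39 ± 0.338 (adjusted p = 0.578, limma).

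Among the subunits, Rela and Nfkb1 encode the parts of the classical dimer, p65 and p50, the latter made from the precursor p105. Rela, on chromosome 19 (5637483 to 5648130, plus strand), was at 12.6, 18.5 and 16.8 RPKM in DP, 13.9, 11.9 and 16.1 in SP, 9.84, 10.1 and 11.1 in IMDP, and 8.41, 11.2 and 9.25 in IMSP libraries. As for Tnfaip3, the 6 imatinib libraries were all lower than the 6 vehicle libraries, a separation found in 0.635% of all genes tested. For Rela the group means were 16.0 ± 3.02 RPKM for DP, 14.0 ± 2.11 for SP, 10.3 ± 0.647 for IMDP and 9.60 ± 1.41 for IMSP cells. The averaged log2 change was -0.57 ± 0.123 (adjusted p = 0.0549, limma), and it passed the threshold without DP replicate 1 (0.0485), SP replicate 2 (0.0464) or IMSP replicate 2 (0.0436). Nfkb1, on chromosome 3 (135584655 to 135691547, minus strand), was at 30.4, 33.8 and 27.2 RPKM in DP, 25.7, 20.9 and 29.4 in SP, 20.5, 21.0 and 19.6 in IMDP, and 18.4, 25.8 and 18.0 in IMSP libraries. For Nfkb1 the group means were 30.4 ± 3.28 RPKM for DP, 25.4 ± 4.30 for SP, 20.4 ± 0.712 for IMDP and 20.8 ± 4.41 for IMSP cells. SP replicate 2 and IMSP replicate 2 made its groups overlap, and its averaged log2 change was -0.43 ± 0.120 (adjusted p = 0.0989, limma).

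Rel, on chromosome 11 (23736847 to 23770970, minus strand), encodes c-Rel, a subunit most abundant in blood cells. It was at 9.76, 18.7 and 12.4 RPKM in DP, 9.20, 6.07 and 14.9 in SP, 3.54, 5.41 and 6.12 in IMDP, and 4.74, 6.74 and 7.52 in IMSP libraries. All DP libraries were above all imatinib libraries, whereas SP replicate 2 was not above the highest of them. For Rel the group means were 13.6 ± 4.60 RPKM for DP, 10.1 ± 4.5 for SP, 5.02 ± 1.34 for IMDP and 6.33 ± 1.44 for IMSP cells. The averaged log2 change of Rel was -1.0 ± 0.239 (adjusted p = 0.0673, limma). Nfkb2, whose precursor p100 is processed to p52, and Relb are the subunits of the non-canonical pathway, and they lie on chromosome 19 (46304320 to 46312385, plus strand) and chromosome 7 (19606217 to 19629438, minus strand). Nfkb2 was at 5.94, 10.0 and 9.66 RPKM in DP, 9.17, 4.83 and 9.03 in SP, 3.48, 5.60 and 4.25 in IMDP, and 2.81, 5.79 and 4.04 in IMSP libraries. Relb was at 1.64, 4.23 and 2.76 RPKM in DP, 2.38, 1.12 and 2.59 in SP, 0.790, 1.54 and 1.27 in IMDP, and 0.621, 1.24 and 0.809 in IMSP libraries. In both genes SP replicate 2 lay within the range of the imatinib libraries. For Nfkb2 the group means were 8.54 ± 2.26 RPKM for DP, 7.68 ± 2.47 for SP, 4.45 ± 1.07 for IMDP and 4.21 ± 1.5 for IMSP cells. For Relb the group means were 2.87 ± 1.30 RPKM for DP, 2.03 ± 0.793 for SP, 1.20 ± 0.378 for IMDP and 0.889 ± 0.316 for IMSP cells. The averaged log2 change was -0.88 ± 0.227 for Nfkb2 (adjusted p = 0.0818, limma) and -1.11 ± 0.287 for Relb (adjusted p = 0.0844, limma).

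Across the 10 genes, 9 had an unadjusted p under 0.05 in the averaged imatinib contrast, all lower, while 18% of all genes tested had such a p and 11% had one with lower values. The median log2 change was -1.05 over the 10 genes and -0.05 over all genes tested. The members are not replicates of the treatment, since all were read in the same libraries.

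The imatinib contrast was also taken within each population. In IMDP against DP cells, no gene of the 10 passed the threshold, which 0.367% of all genes did. Every IMDP library was lower than every DP library in 9 of the 10 genes, all but Bcl3, and the same held for 19% of all genes tested. The same 9 had an unadjusted p under 0.05, and 17.7% of all genes had one with lower values in IMDP cells. The log2 change was -2.07 ± 0.472 for Tnfaip3 and -1.78 ± 0.404 for Nfkbia (adjusted p = 0.0720 for each, limma), followed by Nfkbiz at -1.60 ± 0.491 (0.121), Nfkbie at -1.48 ± 0.493 (0.140) and Rel at -1.41 ± 0.338 (0.0779). Relb was at -1.15 ± 0.406, Nfkb2 at -0.92 ± 0.320, Rela at -0.61 ± 0.174 and Nfkb1 at -0.57 ± 0.170, with adjusted p between 0.105 and 0.157 by limma. Bcl3 was at -0.09 ± 0.477. The median over all genes was -0.17 in this contrast, and subtracting it left Tnfaip3 at -1.90 and Nfkbia at -1.61.

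In IMSP against SP cells, 0 of the 10072 genes passed in limma, and 8.39% had an unadjusted p under 0.05. Of the 10 genes 6 had such a p, namely Nfkb2, Rela, Relb, Nfkbia, Nfkbiz and Tnfaip3, all lower in IMSP cells, which was the case for 2.29% of all genes. Tnfaip3 was at -2.01 ± 0.472 (adjusted p = 0.381, limma), Nfkbiz at -1.39 ± 0.491, Nfkbia at -1.15 ± 0.404 and Bcl3 at 0.87 ± 0.477. Rela, Nfkbiz and Tnfaip3 did not overlap between the groups, against 2.72% of all genes that were lower in every IMSP library. The 2 imatinib contrasts share no library. Neighbouring library numbers still pair each IMDP with an IMSP library and each DP with an SP library, and paired libraries deviated together. The 2 contrasts therefore cannot be read as independent. The test of their difference, the interaction of population and treatment, called none of the 10 genes and none of all genes in limma, with 9.3% of all genes and none of the 10 at an unadjusted p under 0.05. It was largest for Bcl3 (-0.96 ± 0.675), Rel (-0.82 ± 0.477) and Nfkbia (-0.63 ± 0.572). The median of all genes was itself at -0.25 there, and relative to it Bcl3 was at -0.72, Rel at -0.57 and Nfkbia at -0.38.

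**Figure D2:**
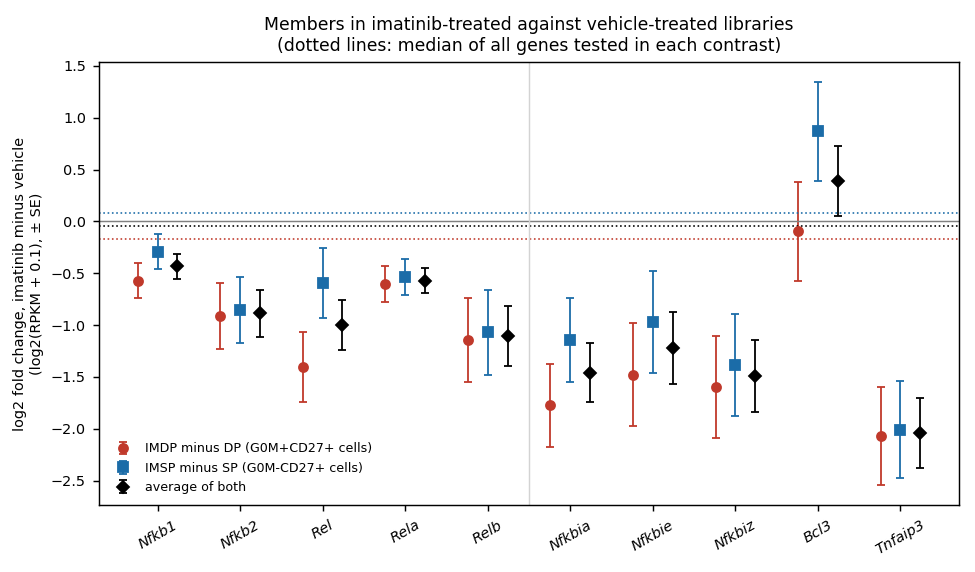
Log2 fold change of each gene with imatinib (vertical axis, log2(RPKM + 0.1), ± SE from limma) in G0M+CD27+ cells (circles), in G0M-CD27+ cells (squares) and averaged over both (diamonds), with the median of all genes tested in each contrast as a dotted line. Tnfaip3 lies near -2 in each of them (-2.07, -2.01 and -2.04), and Bcl3 alone lies above 0 on average (0.39).

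Between the populations, DP cells had higher fitted values than SP cells in all 10 genes, but none passed the threshold in limma, which 2.26% of all genes did. None had an unadjusted p under 0.05 (13.2% of all genes), and all 10 overlapped between the groups, while 9.68% of all genes were higher in every DP library and 12.7% lower. Over all genes 51.9% were below 0 in this contrast. The log2 difference of DP over SP cells was 0.94 ± 0.493 for Nfkbie (adjusted p = 0.442, limma), 0.71 ± 0.472 for Tnfaip3, 0.66 ± 0.491 for Nfkbiz and 0.17 ± 0.320 for Nfkb2. In IMDP against IMSP cells none of the 10 genes passed, against 25.6% of all genes tested, and none had an unadjusted p under 0.05, against 39.7%. Tnfaip3 was at 0.64 ± 0.472, Nfkbiz at 0.45 ± 0.491, Nfkbie at 0.44 ± 0.493, Rel at -0.34 ± 0.338, Nfkbia at -0.38 ± 0.404 and Bcl3 at -0.46 ± 0.477. The median over all genes in this contrast was -0.25, and relative to it Nfkb1 was at 0.25, Rel at -0.08, Nfkbia at -0.13 and Bcl3 at -0.21. Averaged over both treatments, G0M+ against G0M- cells showed no call in the 10 genes, with 26.3% of all genes called, and none at an unadjusted p under 0.05, with 41.4% of all genes there. The largest values were 0.69 ± 0.349 for Nfkbie (adjusted p = 0.155, limma) and 0.67 ± 0.334 for Tnfaip3 (0.148), and Nfkbia was at -0.06 ± 0.286.

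Libraries with neighbouring numbers in the sample descriptions formed pairs of 1 G0M+ and 1 G0M- library of the same treatment, 3 in each treatment. In vehicle-treated cells all 10 genes were higher in the DP library of all 3 pairs, as were 26.3% of all genes tested. In imatinib-treated cells 3 genes (Relb, Nfkbie and Tnfaip3) were higher in the IMDP library of all 3 pairs, and Rel and Nfkbia were lower there in all 3, while 15.2% of all genes were higher in all 3 and 50% lower. For Nfkbia the log2 difference was 0.07, 0.48 and 0.21 in the vehicle pairs and -0.05, -0.31 and -0.78 in the imatinib pairs. For Tnfaip3 it was 0.64, 0.91 and 0.56 with vehicle and 1.33, 0.12 and 0.46 with imatinib. For Nfkbie it was 0.71, 1.29 and 0.82, and 0.40, 0.82 and 0.09. The same pair held the highest value in DP and SP cells for 8 genes, and in IMDP and IMSP cells for 9, against 55.7% and 52.3% of all genes.

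With these 6 pairs as a block in the fit, calls appeared that the unpaired fit did not make. In DP against SP cells Nfkbie (0.94, adjusted p = 0.0131, limma) and Rel (0.48, 0.0332) were higher, where 9.73% of all genes were called. In IMDP against IMSP cells, whose pairs also share the replicate number, Tnfaip3 was higher (0.64, 0.0260, limma) and Rel lower (-0.34, 0.0378), where 44.1% of all genes were called, and the median of all genes was itself at -0.25. Averaged over treatments, Nfkbie (0.69, 0.00215, limma), Tnfaip3 (0.67, 0.00416), Nfkbiz (0.55, 0.00971) and Relb (0.43, 0.0243) were higher in G0M+ cells, where 46.9% of all genes were called. The interaction called none of the 10 in this fit either. What the number stands for is not given in the labels. Each pair lies within a single treatment, so the imatinib contrast cannot be fitted with the pairs as this kind of block. No other fit that allows for the pairs was run for it.

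**Figure D3:**
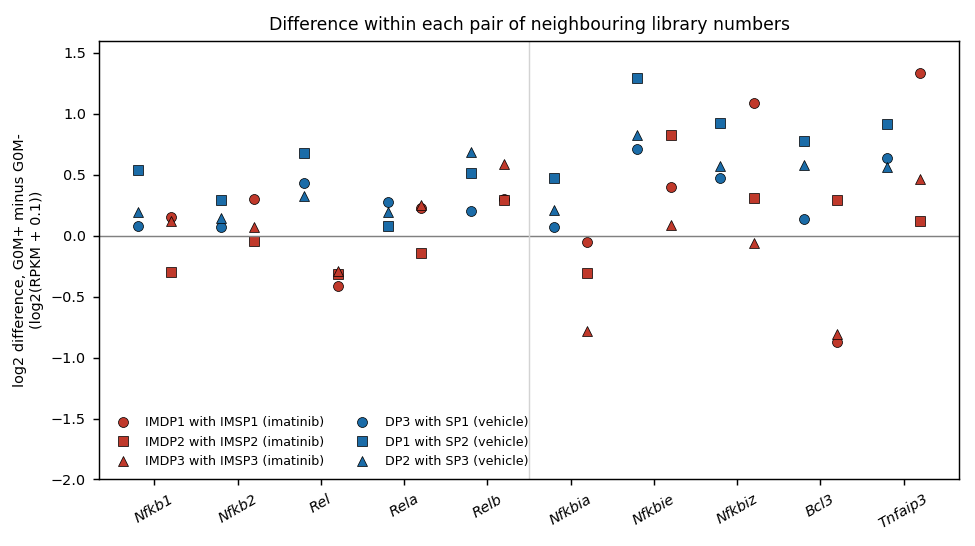
Log2 difference of the G0M+ over the G0M- library (vertical axis, log2(RPKM + 0.1)) within each pair of neighbouring library numbers, for vehicle (blue) and imatinib (red) pairs. All blue points lie above 0, and the red points of Rel (-0.41 to -0.29) and Nfkbia (-0.78 to -0.05) lie below it.

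Because these inhibitors are known NF-κB targets, the stretch before the start site is shown for Nfkbia, which fell with imatinib, and for Nfkbie and Rel, all of whose windows share at most 1 base with the gene as annotated. RefSeq windows (GRCm38.p6, 250 bases before each start site) were at hand for 7 of the 10 genes, with 10 windows in all, and 7 of these windows in 5 genes held a match to the κB consensus of 10 bases on either strand. Of all 32851 windows searched, 7.25% held one, and of the 7839 tested genes with a window 10.5% did. Each sequence below is read 5′ to 3′ on the strand of its gene and ends 1 base before the start site, with matches in capitals. The windows lie at chr12:55492648-55492897 (minus strand) for Nfkbia, at chr17:45555450-45555699 (plus strand) for Nfkbie and at chr11:23770970-23771219 (minus strand) for Rel.
Nfkbia: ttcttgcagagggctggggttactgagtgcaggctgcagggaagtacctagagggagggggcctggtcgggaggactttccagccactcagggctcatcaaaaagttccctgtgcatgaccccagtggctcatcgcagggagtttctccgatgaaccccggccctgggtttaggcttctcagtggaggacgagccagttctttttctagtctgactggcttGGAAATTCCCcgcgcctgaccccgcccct
Nfkbie: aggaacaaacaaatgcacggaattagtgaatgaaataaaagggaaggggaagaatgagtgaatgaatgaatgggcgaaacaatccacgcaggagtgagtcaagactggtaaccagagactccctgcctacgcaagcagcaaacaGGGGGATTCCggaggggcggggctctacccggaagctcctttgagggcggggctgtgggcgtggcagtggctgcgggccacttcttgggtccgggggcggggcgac
Rel: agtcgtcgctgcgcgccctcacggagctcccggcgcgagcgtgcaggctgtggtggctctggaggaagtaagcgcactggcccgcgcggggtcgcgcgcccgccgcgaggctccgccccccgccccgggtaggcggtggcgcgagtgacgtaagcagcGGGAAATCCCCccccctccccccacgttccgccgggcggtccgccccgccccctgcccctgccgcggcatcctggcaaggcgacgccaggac

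The match of Nfkbia, GGAAATTCCC, spans positions -29 to -20 from its start site, that of Nfkbie, GGGGGATTCC, positions -106 to -97, and Rel holds 2 overlapping matches between positions -92 and -82. Tnfaip3 holds GGGACACCCC at positions -125 to -116 and GGAAATCCCC at positions -12 to -3 before 1 of its 2 start sites. Nfkb2 holds matches before all 3 of its start sites, among them GGGAATTCCC at positions -39 to -30. The window of Rela and that of Bcl3 held no match, which says only that these letters are not in them. The match is a description of sequence, and binding was not measured here.

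The other genes of the pathway were grouped by their place in it, and these lists were drawn up with earlier results of these data known. Among receptors of the TNF family upstream of NF-κB, 4 of 9 passed the filter on low values. None was called with imatinib, where the median log2 change was 0.20 and all 4 were above 0, with Tnfrsf1b at 0.51 ± 0.243, Ltbr at 0.27 ± 0.132 and Cd27, whose protein was used for the sort, at 0.12 ± 0.137. In G0M+ against G0M- cells Tnfrsf1a, a TNF receptor (-0.56 ± 0.141, adjusted p = 0.0150, limma), and Ltbr, the lymphotoxin β receptor (-0.45 ± 0.132, 0.0279), were lower. In that contrast 21% of all genes were called as lower, and the median of all genes was -0.13.

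Of 12 adaptors and ubiquitin ligases 11 were tested, and of 11 kinases of the IKK, TAK1 and NIK complexes all were. None of either list was called with imatinib, and the median log2 changes were -0.05 and 0.05. The adaptors with the smallest p were Traf6 (-0.26 ± 0.105), Birc3 (-0.46 ± 0.202) and Birc2 (-0.33 ± 0.181), and in IMDP against DP cells also Ripk1 (-0.35 ± 0.168). In G0M+ against G0M- cells they were Myd88 (-0.29 ± 0.135), Traf2 (-0.22 ± 0.124) and Traf3 (-0.16 ± 0.0957). Map3k14, which encodes NIK, the kinase of the non-canonical pathway, was at 1.26 ± 0.0751 RPKM in DP and 1.03 ± 0.0796 in SP cells, against 1.75 ± 0.157 in IMDP and 1.82 ± 0.475 in IMSP cells (log2 change 0.59 ± 0.155, adjusted p = 0.0876, limma). Map3k8, a kinase that p105 binds, was at 3.68 ± 0.447 RPKM in DP and 2.11 ± 0.750 in SP cells, against 1.67 ± 0.814 in IMDP and 1.52 ± 0.581 in IMSP cells (-0.82 ± 0.260, adjusted p = 0.136, limma). Ikbkg, the regulatory subunit of IKK, was at 0.25 ± 0.127, and Tab2 at -0.25 ± 0.171 in IMDP against DP cells. Between populations none of the kinases was called on average, and Map3k7, Chuk and Tab1 had the smallest p, at -0.29 ± 0.112, -0.30 ± 0.116 and -0.34 ± 0.169. In IMDP against IMSP cells Map3k7, which encodes the kinase TAK1, was called as lower (-0.49 ± 0.159, adjusted p = 0.0400, limma). There 25.6% of all genes were called in either direction, and the median of all genes was -0.25.

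Of 15 other inhibitors 13 were tested, and 0 were called with imatinib in limma. The smallest p belonged to Nfkbid (-1.44 ± 0.317), Tnip1 (-0.65 ± 0.144) and Nfkbib (-0.64 ± 0.145), each with an adjusted p of 0.0574 by limma. Nfkbid encodes another nuclear IκB protein and was at 16.4 ± 5.26 RPKM in DP and 10.3 ± 5.38 in SP cells, against 5.44 ± 2.73 in IMDP and 4.16 ± 1.72 in IMSP cells. Tnip1 encodes a protein that binds A20, and Nfkbib encodes IκBβ. The median log2 change of the list was -0.11, against -1.05 for the 10 genes described here. In G0M+ against G0M- cells none was called, with Nlrc5 at 0.43 ± 0.165, Cyld at 0.24 ± 0.101 and Nfkbib at -0.34 ± 0.145.

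Of 30 other target genes of NF-κB 20 were tested, and 17 of them were below 0 with imatinib, with a median of -0.62, where 57.6% of all genes were below 0. The test called 2 of them as lower, Cd69, an early activation marker (-1.86 ± 0.169, adjusted p = 0.00142, limma), and Tnf, a cytokine that feeds back on the pathway (-1.87 ± 0.376, 0.0464). Cd69 was at 62.1 ± 12.2 RPKM in DP and 44.2 ± 8.30 in SP cells, against 13.5 ± 4.17 in IMDP and 15.7 ± 3.53 in IMSP cells, and in IMDP against DP cells it was the only called gene of the list (-2.22 ± 0.239, adjusted p = 0.00863, limma). Cxcl10 (-2.87 ± 0.618, adjusted p = 0.0549, limma) did not pass, nor did Gadd45b in IMDP against DP cells (-2.11 ± 0.418, 0.0555). In G0M+ against G0M- cells the list had 5 genes called as higher and 1 as lower, next to 5.32% and 21% of all genes. Ltb, which encodes lymphotoxin β, was at 2.05 ± 0.371 (adjusted p = 0.00308, limma), Cd274, which encodes PD-L1, at 1.20 ± 0.226 (0.00378) and Il6 at 3.71 ± 0.762 (0.00600). Vcam1, an adhesion molecule that is also on the macrophage marker list, was among the 5, at 2.62 ± 0.654 (adjusted p = 0.0142, limma). In the same contrast 4 of 7 tested mast cell and basophil genes were called as higher, with a median of 2.04, and 3 of 5 tested macrophage genes, with a median of 1.58. Their part in the values of the target genes was not tested.

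**Figure D4:**
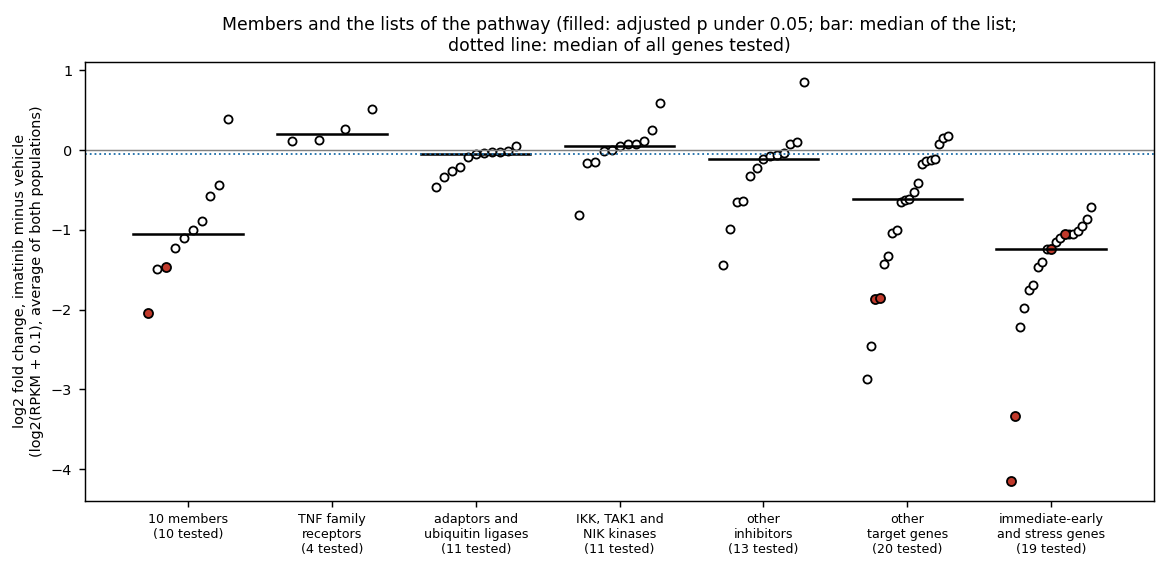
Log2 fold change with imatinib, averaged over both populations (vertical axis, log2(RPKM + 0.1)), of the 10 genes and of every tested gene of 6 lists, with the median of each list as a bar, called genes filled and the median of all genes tested as a dotted line. The medians lie at -1.05 for the 10 genes, at 0.05 for the kinases, at -0.62 for other target genes and at -1.24 for immediate-early and stress genes.

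Immediate-early and stress genes, which many signals and stresses switch on quickly, were examined beside these targets. All 19 were tested and all 19 were below 0, in IMDP against DP cells, in IMSP against SP cells and on average, where the median log2 change was -1.24. Of all genes tested 69.3%, 35.5% and 57.6% were below 0 in these contrasts. On average 4 were called, and the smallest p belonged to Hspa1b (-4.14 ± 0.641, adjusted p = 0.0197, limma), Fosb (-1.24 ± 0.197, 0.0210) and Hspa1a (-3.34 ± 0.663, 0.0447). Fosb (0.75 ± 0.197, adjusted p = 0.0182, limma), Fosl2 (0.78 ± 0.258, 0.0438) and Jund (0.62 ± 0.213, 0.0494) were higher in G0M+ than in G0M- cells, where 5.32% of all genes were called as higher. Fosl2 was at -1.48 ± 0.364 in IMDP against DP cells without passing. The summed level of the list was 531.7 to 752.3 RPKM in DP, 294.6 to 607.1 in SP, 239.2 to 327.6 in IMDP and 117.6 to 329.4 in IMSP libraries.

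Within each group, many of the NF-κB genes had their extremes in the same library. DP replicate 1 held the lowest value of its group for 8 of the 10 genes and DP replicate 2 the highest for all 10, SP replicate 2 held the lowest for all 10, and IMDP replicate 1 and IMSP replicate 1 the lowest for 8 each. In every group that same library had the lowest sum of immediate-early and stress genes, with 531.7 and 294.6 RPKM in the DP and SP groups, and 239.2 and 117.6 in the imatinib groups. It also had the highest sum of mast cell and basophil genes (among them Mcpt8, Cpa3 and Hdc), with 326.2 RPKM in DP replicate 1, 23.0 in SP replicate 2, 180.7 in IMDP replicate 1 and 24.4 in IMSP replicate 1. The same held for erythroid genes, with 50.3, 9.90, 262.6 and 22.6 RPKM. The megakaryocyte and platelet sum did not follow this, as it was highest in DP replicate 1 (118.7 RPKM), lowest in SP replicate 2 (11.0) and IMDP replicate 1 (11.5), and between the others in IMSP replicate 1. The macrophage sum was highest in DP replicate 1 and at neither end of its group in the other 3 libraries. The KSL marker sum was lowest in DP replicate 1 (118.9) and SP replicate 2 (83.4) and highest in IMDP replicate 1 (188.5). The sum of 8 neutrophil-lineage genes, chiefly Mpo and Elane, was highest in the same library in 3 of the groups, with 1056 RPKM in DP replicate 1, 2007 in SP replicate 2 and 1605 in IMSP replicate 1. Between the treatments the stress sum was lower in every IMDP than in every DP library, the macrophage sum was higher in every IMDP than in every DP library, and the KSL marker sum was higher in every IMSP (125.0 to 143.0 RPKM) than in every SP library (83.4 to 111.5). The other sums given here overlapped between the treatments in both populations. The neutrophil-lineage sum was 45.6 to 1056 RPKM in DP, 283.9 to 2007 in SP, 50.0 to 203.7 in IMDP and 370.0 to 1605 in IMSP libraries. The mast cell and basophil sum was 76.3 to 326.2, 10.5 to 23.0, 14.9 to 180.7 and 7.92 to 24.4 RPKM, the macrophage sum 5.99 to 16.2, 3.80 to 8.84, 18.0 to 21.2 and 6.86 to 38.2, and the megakaryocyte and platelet sum 25.0 to 118.7, 11.0 to 34.6, 11.5 to 73.2 and 6.45 to 27.1. T cell genes summed to 1.26 to 8.72 RPKM and B cell genes to 1.38 to 4.13 over the 12 libraries. The part of stress response or of other cells in the values of the NF-κB genes was not tested.

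**Figure D5:**
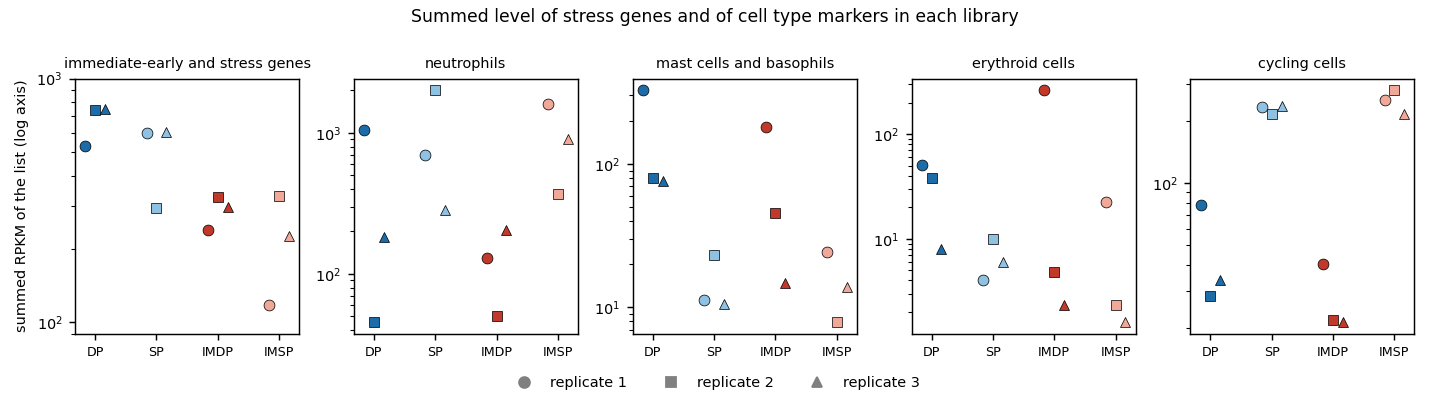
Summed RPKM of immediate-early and stress genes and of 4 sets of marker genes (vertical axes, log scale) in each of the 12 libraries, by group, with the replicate number given by the marker. The stress sum separates DP (531.7 to 752.3) from IMDP libraries (239.2 to 327.6), while SP replicate 2, at 294.6, lies among the imatinib libraries.

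The genes most like Nfkbia in pattern, by Pearson correlation of log2(RPKM + 0.1) over the 12 libraries, were Spty2d1 (0.967), Ier5 (0.948), Zfp622 (0.944), Ccrl2 (0.942) and Tuba1a (0.937). Those most like Rela were Arl5b (0.979), Zbtb10 (0.963), Ier2 (0.963), Rbm39 (0.958) and Tnfaip3 (0.954). Of the other genes described here, 8 correlated with Nfkbia at 0.829 to 0.928, and Bcl3 at -0.19. These values share the libraries and the group differences and are given as a description.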

How the data were processed

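Each library was sequenced from 100 sorted cells, primed with not-so-random primers and tagmented. The authors mapped the reads to GRCm38 with CLC Genomics Workbench according to the methods (HISAT2 and featureCounts in the reporting summary) and deposited RPKM values, 48737 entries per library. Whether these RPKM hold a further normalization, or whether strand was used in counting, is not given in the sources used here. Steps in the values gave back the reads, within 0.02 of a whole number, for all 11972 entries above 0 in every library, the 10 members among them. Entries at 0 in some libraries (17735 were above 0 in any) are less constrained. The library total is an estimate, the value shared by the largest number of single-transcript genes (117 of 712, within 0.1%). Read numbers carry counting error only, since PCR copies cannot be told apart.

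Numbered copies of a gene were summed. Genes that reached 1 RPKM in 3 or more libraries were tested on log2(RPKM + 0.1) with limma 3.58.1 in R 4.3.3 (4 group means, variance trend), all 4 groups in the fit, with Benjamini-Hochberg adjustment and a threshold of 0.05, after checks on simulated data. Groups and numbers came from sample titles. The members and lists were chosen with earlier results of these data known. All 10 members were named, with up to 3 genes of smallest adjusted p per list and contrast and the 5 genes most like Nfkbia and Rela. Deviations from group means correlated at 0.429 to 0.655 between same-numbered IMDP and IMSP libraries, so these numbers pair them, and at -0.298 to -0.0976 between same-numbered DP and SP libraries, whose neighbouring library numbers gave 0.495 to 0.519. Alternatives changed the pseudocount, filter, scaling, block, model (limma-voom on the recovered reads), groups in the fit, numbered copies and library left out. The reads on listed genes as denominator were added after seeing the data. Tables and figures used Python 3.11.15, pandas 2.3.3 and matplotlib 3.10.9.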

Additional observations from a re-analysis of the deposited data

How the results depend on the processing

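Of the averaged imatinib contrast, 2 of the 10 genes passed the threshold, and this count was 1 without a filter on low values, 1 with the reads on listed genes as denominator (chosen after seeing the data), and 0 to 6 when each library was left out in turn. Tnfaip3 passed in 17 of 21 alternatives and Nfkbia in 10 of 21, and without the filter Nfkbia had an adjusted p of 0.0732 (limma), with 16775 genes tested in place of 10072. With neighbouring library numbers as a block, 2 genes passed in DP against SP cells, 2 in IMDP against IMSP cells and 4 in G0M+ against G0M- cells, in place of 0 each. The replicate block, from the number in the sample title, left 2 called in the imatinib contrast (Tnfaip3 at an adjusted p of 0.0241 and Nfkbia at 0.0411, limma) and 0 in the others, and so changed no call. Deviations of same-numbered DP and SP libraries correlated at -0.298 to -0.0976, so this block does not allow for the pairs of the vehicle libraries. Of 1550 alternative values of single genes, 1454 kept their direction and side of the threshold, 16 newly passed, 15 no longer passed, 65 changed sign without a call on either side, and 0 called values reversed. Over all genes the averaged imatinib contrast had 86 calls, and 46 to 162 under the other settings or 12 to 143 with a library left out. Among the other contrasts, the calls were 228 (125 to 980) in DP against SP, 2581 (902 to 4446) in IMDP against IMSP, 37 (0 to 189) in IMDP against DP and 2648 (1583 to 4721) in G0M+ against G0M- cells. Scaling to the median gave 634 higher and 925 lower genes in IMDP against IMSP cells in place of 239 and 2342, and 1116 and 1244 in place of 536 and 2112 on average over treatments. Reads on listed genes made up 25.85 to 31.08% of the estimated total in IMDP and 32.6 to 37.14% in IMSP libraries. The causes were not tested. The fewest reads lay behind Relb and Bcl3, from 29 and 34 a library.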
